A study of Mus musculus with 84 samples.

Results

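The genes described are 9 members of 3 families of synaptic adhesion proteins: the neurexins Nrxn2 and Nrxn3, the neuroligins Nlgn1, Nlgn2 and Nlgn3, and the LRRTM genes Lrrtm1, Lrrtm2, Lrrtm3 and Lrrtm4. They were taken as a list of gene symbols and each was matched to its Ensembl gene ID among the 55401 IDs of the count tables. RNA had been sequenced from the frontal cortex, anterior to bregma +1 mm, of 129S6/SvEvTac mice aged 12 weeks. One group had received vehicle, and the other 3 groups had received DOI (2,5-dimethoxy-4-iodoamphetamine), a psychedelic that activates the serotonin 2A receptor, and were sampled 24 h, 48 h or 7 days later. No genotype, transgene or other agent is given in the labels, and the dose is not given in the sources used here. Nuclei had been sorted for NeuN, a protein of neuronal nuclei, so all 4 groups are of nuclear RNA enriched for neurons. RNA of 4 mice a group was used, with 2 libraries of each mouse summed, which makes 16 mice. The H3K27ac chromatin samples of the series were not analysed here.

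Neurexins sit mainly in the presynaptic membrane and bind partners across the synaptic cleft. Neuroligins and LRRTM proteins are their postsynaptic partners: neuroligins bind through a domain related to cholinesterases, and LRRTM proteins through leucine-rich repeats. Nlgn1 is found mainly at excitatory synapses and Nlgn2 at inhibitory ones, and LRRTM proteins are found mainly at excitatory synapses of the cortex and hippocampus, where they help to hold AMPA receptors.

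The members differ widely in gene structure (GRCm38, positions as in the count tables). Nrxn3 (chr12:88722876-90334935, plus strand) spans 1610 kb with 29 merged exons, and Nrxn2 (chr19:6418731-6544169, plus strand) spans 125 kb with 28. Nlgn1 (chr3:25426215-26332460, minus strand) spans 906 kb with 9 exons. Nlgn2 (chr11:69823122-69837784, minus strand) spans 14.7 kb with 8 exons, and Nlgn3 (chrX:101299168-101325963, plus strand) spans 26.8 kb with 10. The LRRTM genes have 1 to 4 merged exons. Lrrtm1 (chr6:77242689-77257791, plus strand), Lrrtm2 (minus strand) and Lrrtm3 (chr10:63928472-64090277, minus strand) each lie wholly inside an alpha-catenin gene of the opposite strand, namely Ctnna2, Ctnna1 and Ctnna3. Lrrtm4 (chr6:80018877-80810143, plus strand) spans 791 kb and lies in no alpha-catenin gene.

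RefSeq start-site windows (GRCm38.p6) were examined for 6 of the 9 members, in 10 windows. Nrxn2 and Nlgn3 had no entry, and the LRRTM gene not printed below was left out of the search. The 250 bases before the start are printed for 3 LRRTM genes, whose log2 fold changes after DOI were all negative, and for Nlgn2, which passed edgeR's test in no comparison. Each runs 5′ to 3′ on the strand of its gene, and bases inside an exon of the count tables were left off, which shortened the Lrrtm3 sequence to 228 bases. Positions are chr6:77242227-77242476 (plus strand) for Lrrtm1, chr10:64090278-64090505 (minus strand) for Lrrtm3, chr6:80018627-80018876 (plus strand) for Lrrtm4 and chr11:69837785-69838034 (minus strand) for Nlgn2. Capitals mark the letters of a searched motif on either strand.
Lrrtm1: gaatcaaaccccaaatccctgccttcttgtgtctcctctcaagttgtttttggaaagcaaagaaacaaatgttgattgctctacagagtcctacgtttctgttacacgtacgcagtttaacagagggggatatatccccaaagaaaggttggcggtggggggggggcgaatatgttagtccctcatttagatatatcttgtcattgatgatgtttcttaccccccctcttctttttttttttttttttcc
Lrrtm3: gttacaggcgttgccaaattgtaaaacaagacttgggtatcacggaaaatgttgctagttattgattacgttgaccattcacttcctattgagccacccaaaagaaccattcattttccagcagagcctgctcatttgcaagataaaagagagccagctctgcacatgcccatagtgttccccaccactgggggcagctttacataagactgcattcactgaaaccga
Lrrtm4: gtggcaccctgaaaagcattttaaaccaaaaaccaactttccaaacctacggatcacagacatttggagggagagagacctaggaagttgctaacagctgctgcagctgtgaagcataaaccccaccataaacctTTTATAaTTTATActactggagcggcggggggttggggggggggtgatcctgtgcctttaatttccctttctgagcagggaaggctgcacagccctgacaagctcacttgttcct
Nlgn2: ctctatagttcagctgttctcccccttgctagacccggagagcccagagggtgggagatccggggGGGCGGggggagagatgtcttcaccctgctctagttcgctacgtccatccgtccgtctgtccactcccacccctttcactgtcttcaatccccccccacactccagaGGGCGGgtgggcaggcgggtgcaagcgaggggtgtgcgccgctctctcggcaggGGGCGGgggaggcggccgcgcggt
The motifs searched, on both strands, were the CRE (TGACGTCA), a shorter form of it (TGACG), the AP-1 site (TGANTCA), the NR4A response element (AAAGGTCA), an EGR1 site (GCGTGGGCG), the GC box (GGGCGG), the TATA box (TATAAA) and an E-box (CACGTG). The shorter form lies within the CRE. Of all windows 1.55% hold the CRE, 17.8% the shorter form, 6.75% the AP-1 site, 1.34% the NR4A element, 0.536% the EGR1 site and 6.02% the E-box. In the windows of Lrrtm1 and Lrrtm3 none of these strings of letters was present. The Lrrtm4 window held the TATA box letters at 2 neighbouring places on the opposite strand, starting 115 and 108 bases before the start, and 12.4% of all 32851 windows hold them. The Nlgn2 window held the GC box at 3 places, and 32.7% of all windows hold it. By base composition the LRRTM windows were 42.0% (Lrrtm1), 46.0% (Lrrtm3) and 49.2% (Lrrtm4) G or C, all under the median of 52.4% over all windows, and the Nlgn2 window was 67.6%. Among the windows not printed, the second of Nrxn3 held the AP-1 letters TGATTCA, 231 bases before its start. A match of letters describes the sequence and shows no binding.

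The depth of a vehicle mouse was 9151680 to 11517452 counts. It was 6441396 to 8090559 counts in the 24 h mice, 5834248 to 7344355 in the 48 h mice and 6972577 to 12354785 in the 7 day mice. A member had between 40 and 5588 counts in a mouse, so the rarer members (Nlgn2, Nrxn2 and Lrrtm4) carry more counting error. The share of counts on Rn18s-rs5, a copy of 18S ribosomal RNA sequence, was at most 0.0101% in a vehicle mouse, whereas the 24 h mice had 0.328% to 1.57% and the 48 h mice 0.523% to 1.66%. Summed levels of 4 neuronal markers were 5362 to 5668 CPM in vehicle and 3672 to 5817 CPM after DOI. Within that list Rbfox3, the gene of NeuN, rose 1.75-fold, Stmn2 rose 1.76-fold and Snap25 fell by 0.58 on the log2 scale at 24 h. The 2 endothelial markers summed to at most 3.66 CPM in any mouse, with both at 0 in some mice of every group. The 5 excitatory markers summed to 417 to 478 CPM in vehicle, 818 to 2320 CPM at 24 h and 1352 to 2083 CPM at 48 h. In that list 1 of 5 passed the test at 24 h and at 48 h: Camk2a, higher, with a log2 fold change of 2.96 at both times. Slc17a7, the vesicular glutamate transporter, had values of −0.80 and −0.77 that did not pass. Of 6 inhibitory markers, 1 passed as higher (Slc32a1) and 2 as lower (Gad1 and Gad2) at 24 h. At 48 h Slc32a1 passed as higher and Gad1 as lower. Of 7 tested striatal markers 2 were lower at 24 h (Drd1 and Ppp1r1b), of 4 oligodendrocyte markers 1 was lower (Mbp), and of 2 precursor markers 1 was higher (Cspg4, 3.93-fold), while Pdgfra, the other, had a log2 fold change of −0.64 that did not pass. Those 2 precursor markers summed to 6.25 to 18.5 CPM in vehicle and 5.79 to 9.82 CPM at 24 h. At 48 h 1 striatal marker passed, higher (Rgs9, 3.42-fold), and the median log2 fold change of the 7 was −0.32 at 24 h and 0.48 at 48 h. Beside these marker counts, 24.2% of all genes tested passed at 24 h and 30.1% at 48 h. Over 8 fits that left out 1 mouse Stmn2 passed at 24 h in 7, Drd1 in 3 and Cspg4 and Ppp1r1b in 2 each. Snap25 and Mbp passed at 24 h in 1 each, Gad1 in 8, Gad2 in 2 and Slc32a1 in 0. At 48 h Rgs9 passed in 1 of these fits, Gad1 in 2 and Slc32a1 in 8. The part of these shares and markers in the changes of the members was not tested. In such bulk RNA, fewer nuclei of a type and less RNA per nucleus cannot be told apart.

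Levels are given as CPM, counts scaled to library size with TMM factors, and levels of different genes were compared only as CPM per kb of exon. In vehicle mice Lrrtm3 and Lrrtm1 stood highest, at 47.9 ± 3.23 and 47.6 ± 11.5 CPM per kb (mean ± SD, n = 4 throughout). Nrxn3 followed at 29.3 ± 1.55, Lrrtm2 at 21.0 ± 2.62, Nlgn3 at 12.4 ± 1.04, Nlgn1 at 8.48 ± 2.23 and Lrrtm4 at 5.56 ± 1.48 CPM per kb. Nlgn2, at 1.56 ± 0.302, and Nrxn2, at 1.04 ± 0.312 CPM per kb, stood lowest. Neighbours in this order whose ranges over mice overlapped were Lrrtm3 and Lrrtm1, Nlgn3 and Nlgn1, Nlgn1 and Lrrtm4, and Nlgn2 and Nrxn2. At 24 h and 48 h the order differed: Nrxn3 stood first, at 44.2 ± 4.58 and 47.7 ± 4.20 CPM per kb, with every mouse above every value of the next gene. In those groups Nlgn1 (18.5 ± 0.688 and 18.7 ± 1.40 CPM per kb) stood above Lrrtm2 (12.2 ± 2.57 and 14.7 ± 4.31) by its mean, although at 48 h their ranges overlapped. At 7 days Nrxn3, Lrrtm3 and Lrrtm1 shared overlapping ranges, at means of 41.6, 41.1 and 39.7 CPM per kb. The order among members is a description, with no test. The length used was that of all exons, of which 41.2% is shared with another gene for Nlgn3 and 25.1% for Lrrtm4. The headers show no option to count reads on shared exons, so the levels of these genes per kb may be too low. The place of Nlgn3 below Lrrtm2 may depend on this.

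**Figure D1:**
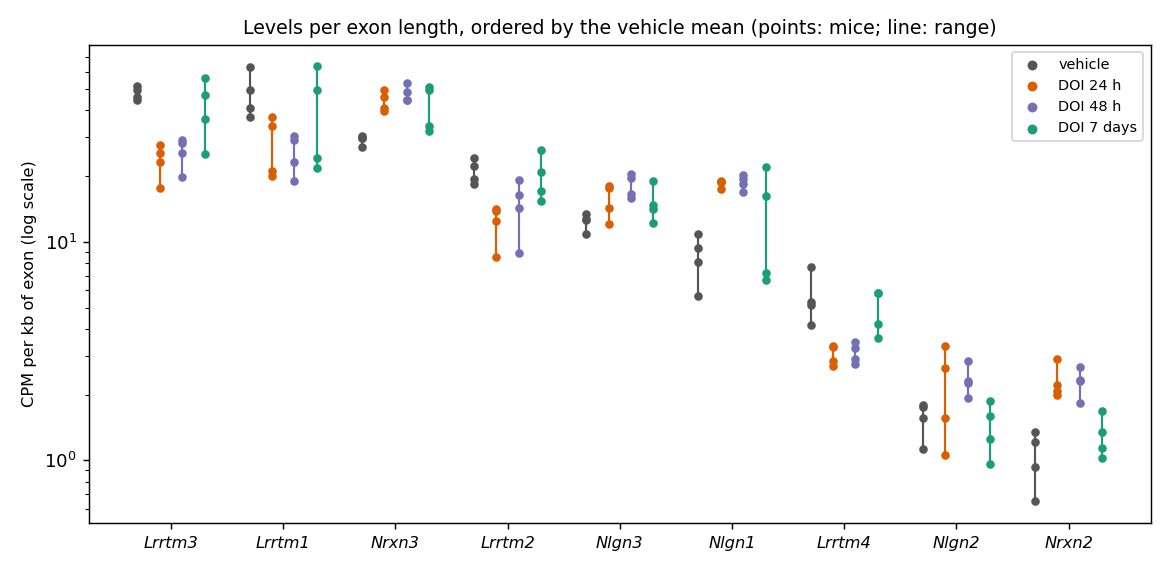
Level of each member as CPM per kb of exon (vertical axis, log scale) in the 4 groups, with genes ordered by their vehicle mean; points are mice and lines join the lowest and highest mouse of a group. Nrxn3 lies above all other members at 24 h (39.8 to 49.7) and 48 h (44.3 to 53.3), whereas Lrrtm3 and Lrrtm1 lie above it in vehicle.

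At 24 h, 6 of the 9 members passed the test against vehicle (edgeR's quasi-likelihood test, Benjamini-Hochberg adjusted over all 17941 genes tested, threshold 0.05), 3 higher and 3 lower, beside 24.2% of all genes tested (13.8% higher, 10.4% lower). At 48 h 7 of 9 passed, 4 higher and 3 lower, beside 30.1% of all genes (16.8% higher, 13.3% lower). All 5 neurexin and neuroligin members had positive log2 fold changes at both times and all 4 LRRTM genes had negative ones, although 3 members at 24 h and 2 at 48 h did not pass. The median log2 fold change over the 9 was 0.32 at 24 h and 0.54 at 48 h, beside 0.03 and 0.02 over all genes tested. With 5 positive and 4 negative values this median is that of Nlgn3, the smallest positive one, and shows no shift of the whole list. In the test of any difference among the 4 groups 6 members passed, Nrxn2, Nrxn3, Nlgn1, Lrrtm2, Lrrtm3 and Lrrtm4, beside 18.8% of all genes, with Lrrtm2 close to the threshold (adjusted p = 0.0498). That count fell to 4 with the replicate number as a block and to 2 with a block by the mouse number of the file headers. It fell to 3 without any 1 of the 4 vehicle mice or without 24 h mouse 2 or 4. The 24 h, 48 h and 7 day comparisons share the same 4 vehicle mice, so they are not independent of one another. Since the Rn18s-rs5 shares of the 24 h and 48 h mice did not overlap those of vehicle, that share and DOI cannot be told apart there. The mitochondrial share, 0.0171% to 0.0701% in vehicle and 0.108% to 0.268% at 48 h, also did not overlap at 48 h, and it and DOI cannot be told apart at that time. With the Rn18s-rs5 share as a covariate 0 of 9 members passed at either time, beside 0% of all genes. In that fit the 24 h log2 fold changes were −1.13 for Lrrtm3 (edgeR adjusted p = 0.121), −1.28 for Lrrtm2 (0.104), −0.59 for Lrrtm4 (0.314), 0.86 for Nlgn1 (0.258), 0.77 for Nrxn2 (0.214) and 0.32 for Nrxn3 (0.444), each in the direction of the fit without it. With the mitochondrial share as a covariate 0 of 9 passed at 48 h, beside 0% of all genes. The 48 h log2 fold changes with the Rn18s-rs5 and with the mitochondrial share were 0.69 and 0.79 for Nrxn2, 0.39 and 0.40 for Nrxn3, 0.82 and 0.65 for Nlgn1, and 0.19 and 0.19 for Nlgn3. They were −0.76 and −0.35 for Lrrtm1, −1.02 and −0.68 for Lrrtm3, and −0.49 and −0.56 for Lrrtm4. The 7 members that had passed at 48 h thus kept the direction of the fit without a covariate in both.

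**Figure D2:**
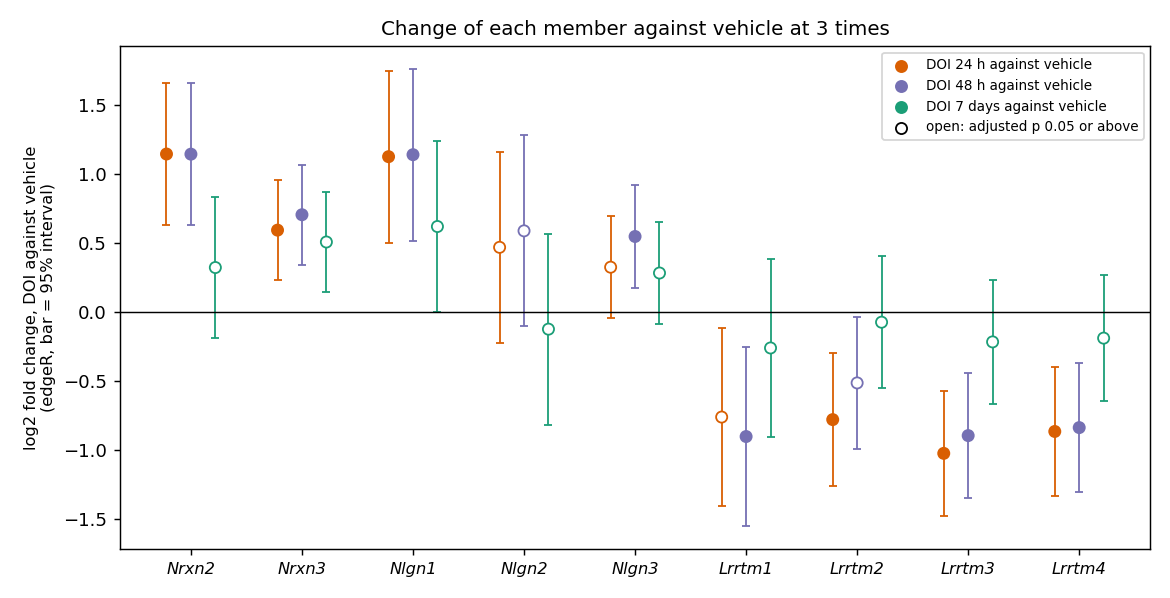
Log2 fold change of each member against vehicle (vertical axis, edgeR, bars are 95% intervals) at 24 h, 48 h and 7 days; filled points passed the test at an adjusted p below 0.05. At 24 h and 48 h the neurexin and neuroligin points lie above 0 and the LRRTM points below it, and at 7 days all points are open.

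Nrxn2, a presynaptic neurexin of low abundance here, read 18.7, 8.98, 12.9 and 16.7 CPM in vehicle mice 1 to 4. At 24 h it read 28.8, 40.0, 27.5 and 30.4 CPM, and at 48 h 32, 25.3, 32.2 and 37.1 CPM. Every mouse of these groups lay above every vehicle mouse, and the 24 h and 48 h groups overlapped each other. Nrxn2 rose 2.21-fold at 24 h (log2 fold change 1.14, SE 0.25, edgeR adjusted p = 0.00472) and 2.21-fold at 48 h (adjusted p = 0.00382). The 7 day mice read 14.1, 18.6, 15.8 and 23.2 CPM, which overlapped vehicle and lay wholly below the 24 h and 48 h mice. Its log2 fold change from 48 h to 7 days was −0.82 and did not pass (adjusted p = 0.155).

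Nrxn3, the most counted member in every group, read 386, 343, 379 and 380 CPM in vehicle. The 24 h mice read 505, 630, 521 and 585 CPM and the 48 h mice 567, 616, 676 and 562 CPM. Neither group overlapped vehicle. The rise was 1.51-fold at 24 h (log2 0.59, SE 0.17, edgeR adjusted p = 0.0212) and 1.63-fold at 48 h (log2 0.70, adjusted p = 0.00747). The 24 h call was lost without vehicle mouse 2 (adjusted p = 0.0656), 24 h mouse 2 (0.0615) or 24 h mouse 4 (0.0553). At 7 days Nrxn3 read 429, 626, 405 and 650 CPM. Those mice still lay wholly above vehicle, with mice 2 and 4 in the range of the earlier groups, and the log2 fold change of 0.51 had an unadjusted p of 0.00904 and an edgeR adjusted p of 0.157. Without 7 day mouse 3 that adjusted p was 0.0416.

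**Figure D3:**
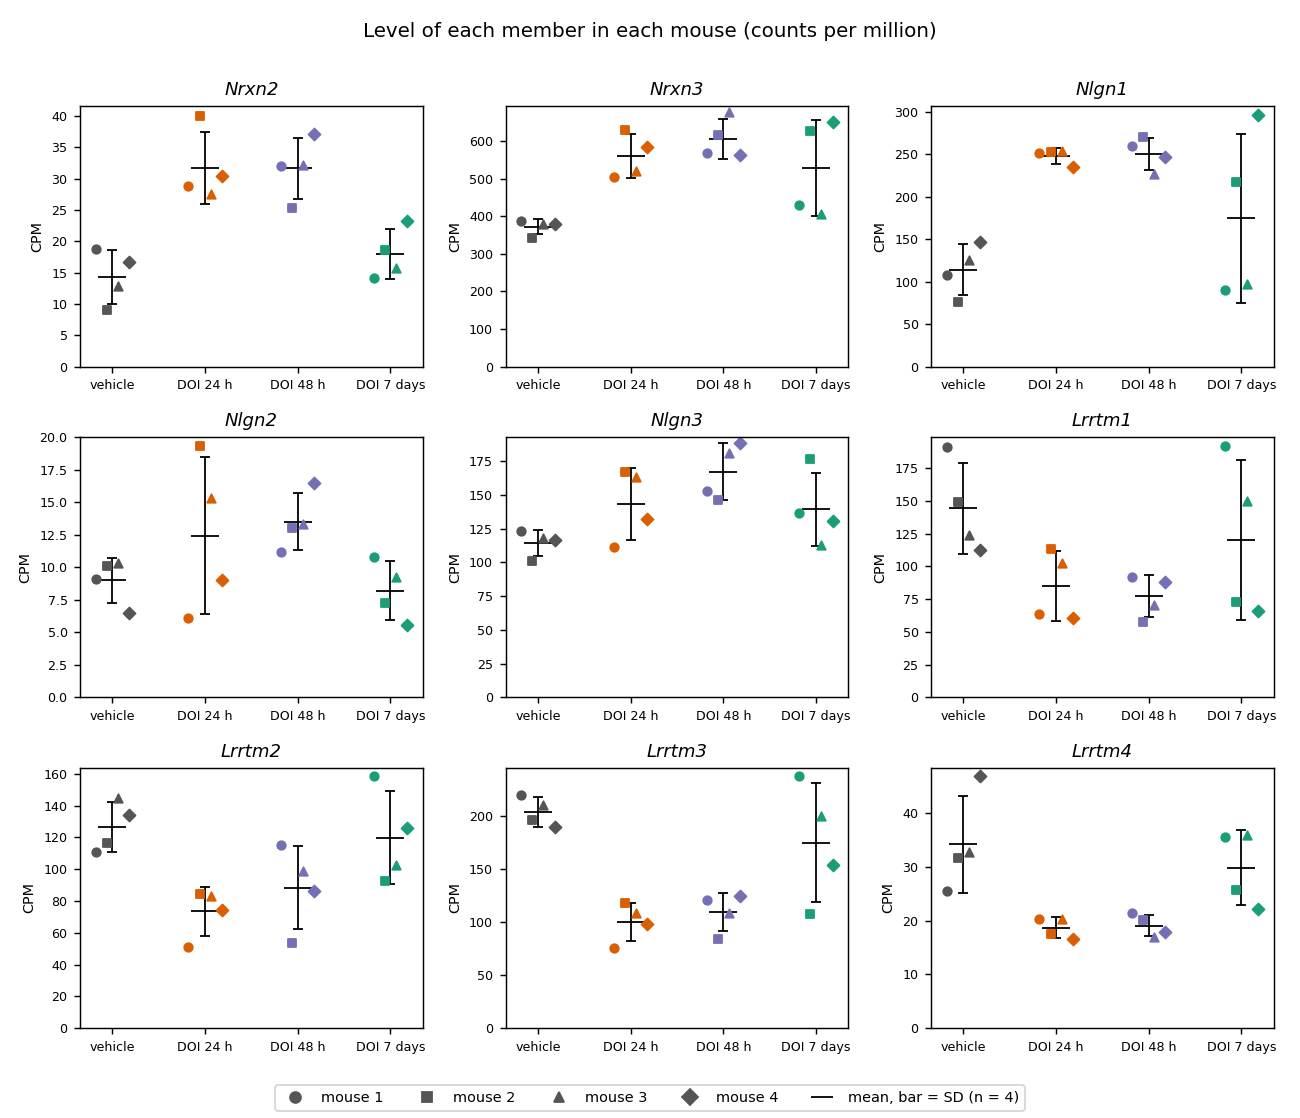
CPM of each member (vertical axes, each from 0) in every mouse, with symbols for mouse 1 to 4 within each group, a black line for the mean and bars for the SD (n = 4). The vehicle mice of Nrxn2, Nrxn3 and Nlgn1 lie below all 24 h and 48 h mice, those of Lrrtm3 and Lrrtm4 lie above them, and the 7 day mice of Nlgn1 and Lrrtm1 spread from 89.8 to 296 CPM and from 65.9 to 192 CPM.

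Among the neuroligins, Nlgn1 read 108, 75.5, 125 and 146 CPM in vehicle, 252, 252, 254 and 234 CPM at 24 h, and 260, 270, 226 and 246 CPM at 48 h. The DOI groups lay wholly above vehicle and varied less between mice (SD 9.23 and 18.7 CPM, against 30.0 CPM in vehicle). It rose 2.18-fold at 24 h (log2 1.12, SE 0.30, edgeR adjusted p = 0.0133) and 2.20-fold at 48 h (log2 1.14, adjusted p = 0.00995). At 7 days mice 1 and 3 read 89.8 and 96.9 CPM, inside the vehicle range, and mice 2 and 4 read 217 and 296 CPM, above it. The log2 fold change of 0.62 at 7 days did not pass (adjusted p = 0.298).

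Nlgn3 read 124, 101, 118 and 116 CPM in vehicle mice 1 to 4, and 153, 146, 181 and 189 CPM in the 48 h mice. The 24 h mice (111 to 167 CPM) and the 7 day mice (113 to 176 CPM) both overlapped vehicle. It rose at 48 h, where no mouse overlapped vehicle, by 1.46-fold (log2 0.54, SE 0.18, edgeR adjusted p = 0.0277). This call was lost when any 1 of the 4 vehicle mice was left out (adjusted p = 0.0504, 0.0916, 0.0549 and 0.0569 without vehicle mouse 1, 2, 3 and 4) and without 48 h mouse 3 (0.0727) or 4 (0.0809). At 24 h its log2 fold change was 0.32 and did not pass (adjusted p = 0.187). By limma's voom that 24 h change was 0.42 and passed (adjusted p = 0.0122). Of the 9271 bp of Nlgn3 exons, 3823 bp (41.2%) are shared with Gm21986 of the same strand. The headers show no option to count reads on shared exons, and Gm21986 had at most 14 counts in any mouse.

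Nlgn2, the neuroligin of inhibitory synapses, was the member with the fewest counts, 40 to 130 in a mouse. It read 9.06, 10.1, 10.3 and 6.52 CPM in vehicle and 6.09, 19.3, 15.3 and 9.00 CPM at 24 h, groups that overlapped. At 48 h it read 11.2, 13.1, 13.3 and 16.5 CPM, all above vehicle, with a log2 fold change of 0.59 (95% interval −0.11 to 1.28) that did not pass (edgeR adjusted p = 0.183). At 7 days it read 5.60 to 10.8 CPM. A change of the size seen for Nlgn1 lies inside the 95% interval at 24 h (−0.23 to 1.16) and at 48 h. By edgeR, the data at this depth thus do not tell a change of that size from no change. By limma's voom the 24 h log2 fold change of Nlgn2 was 0.69 and passed (adjusted p = 0.0326).

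Within the neuroligins per mouse, Nlgn1 made up 37.4 ± 5.79% of the summed CPM per kb in vehicle mice, 51.6 ± 5.44% in the 24 h mice, 47.9 ± 4.72% in the 48 h mice and 41.7 ± 13.4% in the 7 day mice. Nlgn3 made up 55.5 ± 4.01% in vehicle and 42.6 ± 3.39% at 24 h. Its share was 46.1 ± 4.31% in the 48 h mice and 52.9 ± 10.9% in the 7 day mice. The 24 h ranges of both shares did not overlap those of vehicle (46.8 to 58.9% against 30.8 to 44.3% for Nlgn1). At 48 h the range of Nlgn1 (43.5 to 52.7%) overlapped that of vehicle and the range of Nlgn3 (41.4 to 50.5% against 51.1 to 59.7%) did not, and at 7 days both overlapped. These shares are a description, with no test. Reads on the 41.2% of Nlgn3 exon bases shared with another gene may go uncounted, so the Nlgn3 share may be too low in every group.

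The LRRTM genes, postsynaptic binders of neurexins, had negative log2 fold changes at each time. Lrrtm3 read 219, 196, 210 and 189 CPM in vehicle, 75.2, 117, 109 and 98.1 CPM at 24 h, and 120, 84.0, 108 and 124 CPM at 48 h. No treated mouse of these groups reached the lowest vehicle mouse. Lrrtm3 fell at 24 h, to a level 2.04-fold lower (log2 −1.03, SE 0.22, edgeR adjusted p = 0.00432), and at 48 h, 1.86-fold lower (log2 −0.90, adjusted p = 0.00651). At 7 days it read 237, 108, 200 and 154 CPM, which spans from the DOI 24 h range to above the vehicle range. From 24 h to 7 days its log2 fold change was 0.81, with an edgeR adjusted p of 0.141 and a DESeq2 adjusted p of 0.0232; without 7 day mouse 2 the edgeR adjusted p was 0.0337.

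Lrrtm4 read 25.5, 31.6, 32.7 and 47.0 CPM in vehicle, 20.3, 17.6, 20.4 and 16.7 CPM at 24 h, and 21.4, 20.1, 17.0 and 17.8 CPM at 48 h. Here too the groups did not overlap vehicle. It fell 1.83-fold at 24 h (log2 −0.87, SE 0.22, edgeR adjusted p = 0.0113) and 1.79-fold at 48 h (log2 −0.84, adjusted p = 0.0106). The 7 day mice read 35.7, 25.8, 36.0 and 22.2 CPM and lay wholly above the 24 h and 48 h mice. Their log2 fold change against vehicle was −0.19 (adjusted p = 0.684).

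Lrrtm2, which has 1 merged exon and lies on chromosome 18 at 35209003 to 35215024, read 111, 116, 145 and 134 CPM in vehicle and 51.3, 84.7, 83.4 and 74.6 CPM at 24 h. These groups did not overlap, and Lrrtm2 fell 1.72-fold (log2 −0.78, SE 0.23, edgeR adjusted p = 0.0215). The call was lost without vehicle mouse 3 (adjusted p = 0.0582) or 4 (0.0511), or without 24 h mouse 1 (0.0650) or 4 (0.0502). At 48 h it read 115, 53.7, 98.6 and 86.2 CPM and overlapped vehicle through mouse 1. Its log2 fold change of −0.52 at 48 h did not pass (adjusted p = 0.0932), and without 48 h mouse 1 it was −0.69 with an adjusted p of 0.0488. The 48 h change of Lrrtm2 passed by limma's voom (adjusted p = 0.00396) and by duplicateCorrelation over the 32 libraries (0.029).

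Lrrtm1 read 192, 149, 124 and 113 CPM in vehicle, 63.7, 113, 103 and 60.7 CPM at 24 h, and 92.0, 57.8, 70.4 and 88.3 CPM at 48 h. It fell at 48 h, where no mouse reached the vehicle range, 1.87-fold (log2 −0.91, SE 0.31, edgeR adjusted p = 0.0350). That call was lost without vehicle mouse 1 (adjusted p = 0.114) or 2 (0.0708) and without 48 h mouse 2 (0.100) or 3 (0.0817). At 24 h the highest mouse overlapped the lowest vehicle mouse, and the log2 fold change of −0.76 did not pass (adjusted p = 0.0760). That 24 h change passed in a fit of the 32 libraries with duplicateCorrelation (adjusted p = 0.00996). It also passed by edgeR without a filter (adjusted p = 0.0131) and with only the groups compared (0.0202). At 7 days Lrrtm1 read 192, 73.2, 150 and 65.9 CPM, with mice 2 and 4 below the vehicle range, mouse 3 inside it and mouse 1 at its upper end, 192 CPM in both groups when rounded.

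Within the LRRTM family the shares of the 4 genes in summed CPM per kb kept overlapping ranges across groups. Lrrtm1 made up 38.7 ± 6.00% in vehicle and 41.4 ± 4.99% at 24 h, Lrrtm3 39.3 ± 1.61% and 35.4 ± 2.90%, Lrrtm2 17.4 ± 3.23% and 18.4 ± 2.02%, and Lrrtm4 4.65 ± 1.60% and 4.75 ± 1.28%. Reads on the 25.1% of Lrrtm4 exon bases shared with another gene may go uncounted, so the Lrrtm4 share may be too low in every group. As a description over the 16 mice, which share library depth and group, Pearson's r of log2 CPM between LRRTM genes ran from 0.637 (Lrrtm1 with Lrrtm4) to 0.870 (Lrrtm2 with Lrrtm3). Between an LRRTM gene and Nrxn2, Nrxn3, Nlgn1 or Nlgn3 it ran from −0.847 (Nlgn1 with Lrrtm1) to −0.196 (Nlgn3 with Lrrtm2). For Nlgn2 it ran from −0.429 (with Lrrtm4) to 0.587 (with Nlgn3).

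By the count of members whose mice did not overlap vehicle, 6 of 9 did so at 24 h (3 above, 3 below), beside 35.7% of all genes tested (18.5% above, 17.2% below). At 48 h it was 8 of 9 (5 above, 3 below), beside 38.1% (19.2% above, 19% below). At 7 days it was 1 of 9, Nrxn3, beside 5.85% of all genes. Only Lrrtm2 at 48 h, and Lrrtm1, Nlgn2 and Nlgn3 at 24 h, overlapped vehicle among the 18 member and group pairs of the first 2 times.

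At 7 days 0 of 9 members passed against vehicle by edgeR, beside 0% of all genes. At an unadjusted p below 0.05 it was 1 of 9, Nrxn3, beside 16.8% of all genes. DESeq2 called 0 members, beside 4.44% of all genes with an adjusted p in that fit, limma's voom called 0 beside 0%, and a fit of the 32 libraries with duplicateCorrelation called 1 beside 1.97%. Between 24 h and 48 h 0 of 9 passed by each of these 4 fits, beside 0% of all genes, and with 0 at an unadjusted p below 0.05 beside 1.88% of all genes. Between 48 h and 7 days 0 of 9 passed by edgeR, beside 0% of all genes, with 4 at an unadjusted p below 0.05 beside 16.5% of all genes. DESeq2 called 1 there, beside 2.92% of all genes, and duplicateCorrelation 3, beside 7.72%. Between 24 h and 7 days 0 of 9 passed by edgeR, beside 0.00557% of all genes, with 4 at an unadjusted p below 0.05 beside 14.2% of all genes. DESeq2 called 2 there, beside 2.72% of all genes, and duplicateCorrelation 3, beside 6.12%. In both comparisons voom called 0 members, beside 0% and 0.117% of all genes.

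The 7 day mice differed among themselves. Mice 2 and 4 had Nrxn3 at 626 and 650 CPM, Nlgn1 at 217 and 296 CPM, Lrrtm1 at 73.2 and 65.9 CPM and Lrrtm4 at 25.8 and 22.2 CPM. Mice 1 and 3 had Nrxn3 at 429 and 405 CPM, Nlgn1 at 89.8 and 96.9 CPM, Lrrtm1 at 192 and 150 CPM and Lrrtm4 at 35.7 and 36.0 CPM. Nrxn2 was higher and Lrrtm3 lower in mice 2 and 4 than in mice 1 and 3. Not every member split this way: in mice 1 to 4 Lrrtm2 read 159, 92.8, 102 and 126 CPM and Nlgn3 137, 176, 113 and 131 CPM. Nlgn2 was lower in mice 2 and 4 (7.28 and 5.60 CPM) than in mice 1 and 3 (10.8 and 9.22 CPM), although its 24 h and 48 h log2 fold changes were positive. The Rn18s-rs5 share was 0.633% and 0.474% in mice 2 and 4 and 0.00834% and 0.00607% in mice 1 and 3. The mitochondrial share was 0.130% and 0.114% in mice 2 and 4 and 0.0413% and 0.0210% in mice 1 and 3. Striatal projection neuron markers, 8 genes, summed to 1807 and 1361 CPM in mice 2 and 4 and to 665 and 418 CPM in mice 1 and 3, against 348 to 385 CPM in vehicle. The excitatory sum was 1317 and 1160 CPM in mice 2 and 4 and 422 and 401 CPM in mice 1 and 3. The 6 inhibitory markers summed to 2798 and 2632 CPM in mice 2 and 4 and 2035 and 1402 CPM in mice 1 and 3. The 3 microglial markers went the other way, with 48.2 and 44.1 CPM in mice 2 and 4 and 111 and 96.3 CPM in mice 1 and 3. The part of these in the spread of the members was not tested.

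Some annotated features lie in introns of the members, on the same strand and outside their exons. Lrrtm4 holds 8 such features and Nrxn3 holds 3, and Nlgn1 holds Gm37573. The features in Lrrtm4 introns summed to 26.2, 23.7, 71.5 and 55.3 CPM in vehicle, 300, 119, 99.3 and 200 CPM at 24 h, and 152, 419, 232 and 133 CPM at 48 h. All 24 h and 48 h mice lay above all vehicle mice, while the exon counts of Lrrtm4 lay below them. Relative to the exon counts of Lrrtm4 the sum was 74.8% to 219% in vehicle and 486% to 1480% at 24 h. Of 7 that could be tested 5 passed at 24 h and 7 at 48 h, each higher, beside 13.8% and 16.8% of all genes tested that were higher. Those that passed at both times were Gm44240, Gm44228, Gm44230, Gm20371 and Gm44229, while Gm44241 and Gm44242 passed at 48 h, and Gm44231 had too few counts to be tested. Gm44230 (chr6:80268496-80272045), rose 7.15-fold at 24 h (log2 2.84, SE 0.70, edgeR adjusted p = 0.00961) and 9.22-fold at 48 h. Its 48 h mice read 26.9, 121, 50.5 and 35.0 CPM, and without mouse 2 of that group the rise was 5.94-fold (edgeR adjusted p = 0.0185). Over 8 fits that each left out 1 mouse, Gm44230 and Gm44240 passed in all 8 at both times and Gm44242 in all 8 at 48 h. At 24 h Gm44228 passed in 4 of them, Gm20371 in 3 and Gm44229 in 3, and at 48 h in 7, 5 and 5, while Gm44241 passed in 1 at 48 h. At 7 days the Lrrtm4 features summed to 34.9, 270, 51.5 and 279 CPM. The features in Nrxn3 introns summed to 12.5 to 25.5 CPM in vehicle, 40.3 to 78.6 CPM at 24 h and 48.9 to 115 CPM at 48 h, in the same direction as the Nrxn3 exons. Within them Gm48692 rose 13.7-fold (edgeR adjusted p = 0.00552) and Gm48700 2.64-fold (0.0385) at 24 h, and Gm23989 was not tested for too few counts. Without vehicle mouse 3 the rise of Gm48692 was 21.2-fold, and Gm48700 passed at 24 h in 2 of 8 fits that left out 1 mouse. Gm37573 in Nlgn1 read 0.189 to 0.688 CPM in vehicle and 5.68 to 9.23 CPM at 24 h, a rise of 12.6-fold (edgeR adjusted p = 0.00918) from 2 to 7 counts per vehicle mouse.

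**Figure D4:**
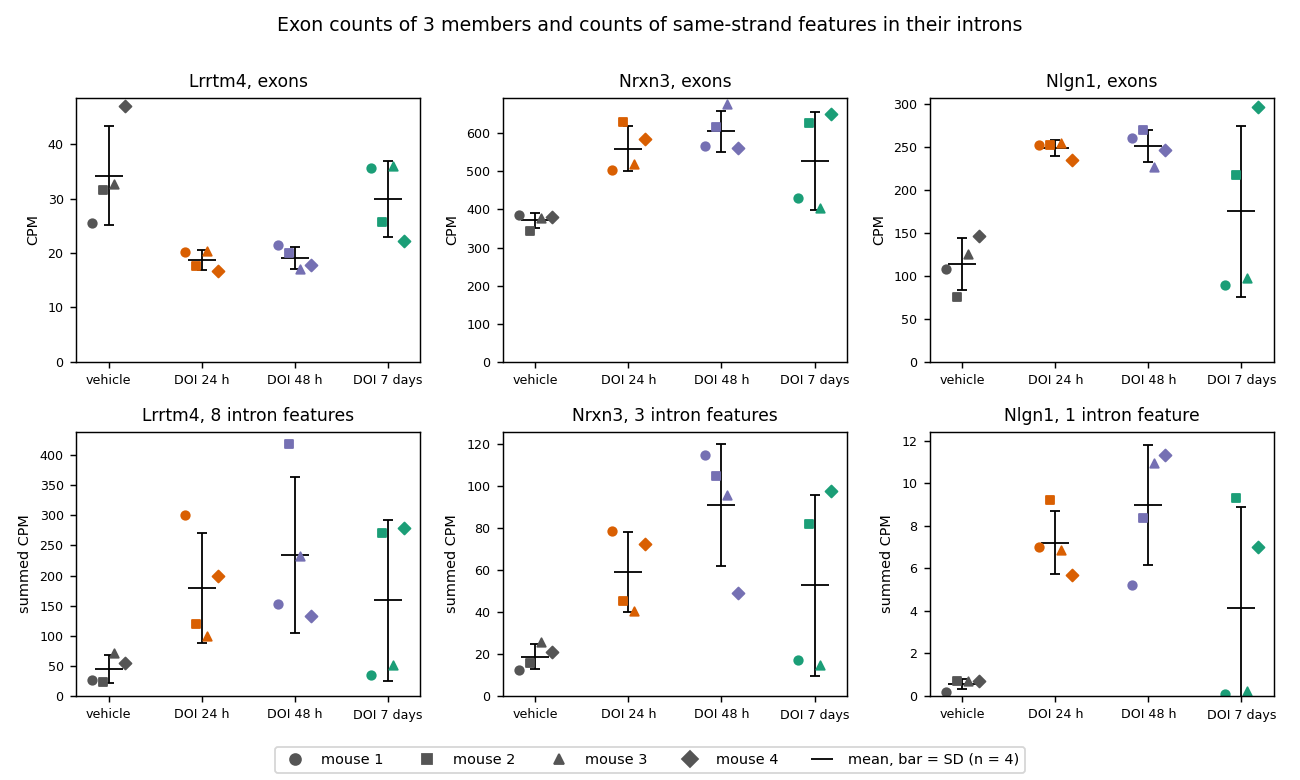
CPM of the exons (upper row) and summed CPM of same-strand features in introns (lower row) for Lrrtm4, Nrxn3 and Nlgn1 in every mouse, with mean and SD (n = 4), each axis from 0, where an SD bar is cut. For Lrrtm4 the vehicle mice lie above the 24 h mice in the upper panel (25.5 to 47.0 against 16.7 to 20.4 CPM) and below them in the lower panel (23.7 to 71.5 against 99.3 to 300 CPM).

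Of the 3 alpha-catenin genes around LRRTM members, 1 passed the test at 24 h and at 48 h, 33.3% beside 24.2% and 30.1% of all genes. Alpha-catenins link cadherins to actin. Ctnna2, which holds Lrrtm1 on the opposite strand, read 30.2 to 47.4 CPM in vehicle, 61.2 to 70.3 CPM at 24 h and 71.0 to 86.5 CPM at 48 h. It rose 1.67-fold at 24 h (edgeR adjusted p = 0.0280) and 2.04-fold at 48 h (adjusted p = 0.00485), the direction opposite to that of Lrrtm1. Over 8 fits that left out 1 mouse, Ctnna2 passed at 24 h in 4, and 0 to 1 of the 3 alpha-catenin genes passed at 24 h and 1 to 2 at 48 h. Ctnna1, around Lrrtm2, had log2 fold changes of −0.59 and −0.51 that did not pass (adjusted p = 0.0621 and 0.0912), and Ctnna3, around Lrrtm3, had 0.82 and 0.28 (0.223 and 0.695). Lrrtm1 and Lrrtm3 share no exon sequence with these genes, and Lrrtm2 shares 95 bp with Ctnna1. Lrrtm4 shares 1543 bp (25.1%) of its exons with Gm4409 of the opposite strand, which had at most 6 counts in any mouse. Nlgn1 shares 1229 bp (9.16%) with A830092H15Rik of the opposite strand, whose log2 fold change of 0.61 at 24 h did not pass (adjusted p = 0.263). Within Nlgn1 on the opposite strand, the pseudogene Gm6197 rose 6.14-fold at 24 h (adjusted p = 0.0226) and 6.37-fold at 48 h from 1 to 9 counts in a vehicle mouse. Without vehicle mouse 3 these were 10.1-fold and 10.6-fold, and over 8 fits that left out 1 mouse it passed in 3 at 24 h and 6 at 48 h. Within Nrxn2 on the opposite strand, AC167245.1 rose 11.2-fold at 48 h (adjusted p = 0.0272) from 0 to 9 counts, a fold that depends on the prior count. Its 48 h mice read 11.2, 3.35, 4.00 and 0.399 CPM, so mouse 4 lay within the vehicle range of 0 to 0.876 CPM. Without 48 h mouse 1 the fold was 6.02 and did not pass (edgeR adjusted p = 0.100), without vehicle mouse 4 it was 18.1, and it passed in 4 of 8 fits that left out 1 mouse. Gm14964 in Nrxn2 and Gm37980 in Nrxn3 did not pass, and Slc22a12 in Nrxn2, Gm27313 in Nrxn3 and Gm24250 in Nlgn1 had too few counts to be tested. Since the headers show no strand option, reads of opposite strands cannot be told apart by position alone.

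Partners of these families, other trans-synaptic adhesion genes and the alpha-catenin genes that hold LRRTM genes were grouped into 7 lists of 71 genes, of which 68 had enough counts to be tested. Of these 27 passed against vehicle at 24 h, 13 higher and 14 lower, and 27 at 48 h, 14 higher and 13 lower, beside 24.2% and 30.1% of all genes tested. At 7 days 0 of 68 passed by edgeR, with 13 at an unadjusted p below 0.05 beside 16.8% of all genes. By DESeq2 2 passed at 7 days, by voom 0 and by duplicateCorrelation 3, beside 4.44%, 0% and 1.97% of all genes. With the Rn18s-rs5 share as a covariate 0 genes of every list passed at 24 h and at 48 h, and with the mitochondrial share 0 passed at 48 h, beside 0% of all genes in each of these.

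Among 9 tested neurexin ligands 3 passed at 24 h and 3 at 48 h, 33.3% beside 24.2% and 30.1% of all genes. The median log2 fold change was −0.37 and −0.35. Dag1, the dystroglycan precursor, rose 1.98-fold at 24 h (edgeR adjusted p = 0.0137) and 1.85-fold at 48 h. Cbln2, a secreted cerebellin that bridges neurexins to receptors across the cleft, fell 1.88-fold at 24 h (adjusted p = 0.0230) and 1.95-fold at 48 h. Nxph1, a secreted neurexophilin, fell 1.64-fold at 24 h, and Cbln4 fell 2.04-fold at 48 h. Over fits that left out 1 mouse the count at 24 h ran from 0 to 4 and at 48 h from 1 to 3. Of 8 such fits Dag1 passed in 7 at each time, Cbln2 in 4 and Nxph1 in 2 at 24 h, and Cbln4 in 4 at 48 h.

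Of 7 cytoplasmic partners of neurexins 5 passed at each time, 2 higher and 3 lower, 71.4% beside 24.2% and 30.1% of all genes. The higher ones were Apba1, a Munc18-binding adaptor also called Mint1, and Caskin1, which binds CASK. Apba1 rose 3.22-fold at 24 h (log2 1.69, SE 0.33, edgeR adjusted p = 0.00329) and Caskin1 2.13-fold (adjusted p = 0.00510). The lower ones were the 3 Lin7 genes, PDZ proteins that form a complex with CASK and Mint1: Lin7c fell 2.15-fold and Lin7a 2.10-fold at 24 h, and Lin7b fell 2.16-fold at 48 h. Lin7a read 70.0 to 80.8 CPM in vehicle and 28.5 to 44.9 CPM at 24 h, with no overlap. Cask itself had log2 fold changes of −0.21 and 0.05 that did not pass.

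Of 8 regulators and postsynaptic partners of neuroligins 4 passed at each time, 3 higher and 1 lower, 50% beside 24.2% and 30.1% of all genes. Mdga1 and Mdga2 encode surface proteins that bind neuroligins and block their contact with neurexins. Mdga2 read 49.8 to 69.7 CPM in vehicle and 102 to 143 CPM at 24 h, and it rose 2.04-fold at 24 h (edgeR adjusted p = 0.0217) and 2.59-fold at 48 h (adjusted p = 0.00461). Mdga1, of low abundance (0.59 to 1.02 CPM in vehicle), rose 3.03-fold and 4.37-fold. Dlg4, the scaffold PSD-95 that binds neuroligins inside the postsynaptic cell, read 24.7 to 29.9 CPM in vehicle and rose 1.98-fold at 24 h (adjusted p = 0.0178) and 2.22-fold at 48 h. Its relative Dlg3, SAP102, fell 1.92-fold at 24 h (adjusted p = 0.0179) and 1.76-fold at 48 h. The gephyrin gene Gphn, of inhibitory synapses, had log2 fold changes of 0.16 and 0.10 that did not pass. The 24 h count of 4 ran from 1 to 4 over 8 fits that left out 1 mouse. In these Mdga1 passed at 24 h in 1, Mdga2 in 5 and Dlg4 in 6, and Dlg3 passed at 48 h in 2.

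Of 7 heparan sulfate partners of LRRTM proteins 2 passed at 24 h, 28.6% beside 24.2% of all genes, and 3 at 48 h, 42.9% beside 30.1%. Ptprs, a receptor phosphatase that binds heparan sulfate, rose 2.24-fold at 24 h (log2 1.16, SE 0.18, edgeR adjusted p = 0.00153) and 2.30-fold at 48 h. It read 143 to 196 CPM in vehicle and 321 to 423 CPM at 24 h. Sdc2, a syndecan, fell 2.09-fold and 2.20-fold, and Gpc5, a glypican, fell 2.74-fold at 48 h (adjusted p = 0.0407). Gpc4, a glypican that binds Lrrtm4, had log2 fold changes of 0.32 and 0.63 that did not pass. Among the 3 splicing regulators of neurexins 1 passed at each time, 33.3% beside the same shares of all genes: Khdrbs3 (SLM2) fell 1.63-fold at 24 h (adjusted p = 0.0225) and 1.91-fold at 48 h, and Khdrbs1 and Khdrbs2 did not pass. Over 8 fits that left out 1 mouse Khdrbs3 passed at 24 h in 5, losing the call without vehicle mouse 3 or 24 h mouse 2 or 3, and Gpc5 passed at 48 h in 3.

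Of 31 other trans-synaptic adhesion genes 11 passed at 24 h (5 higher, 6 lower) and 10 at 48 h (6 higher, 4 lower), 35.5% and 32.3%, beside 24.2% and 30.1% of all genes tested. The 2 largest in each direction among those that passed at 24 h were Lrfn3 and Slitrk1, postsynaptic leucine-rich repeat proteins, and Adgrl2 (latrophilin 2) and Flrt3, a ligand of latrophilins. Lrfn3 rose 3.52-fold at 24 h (edgeR adjusted p = 0.00756) and 4.41-fold at 48 h, and Slitrk1 rose 2.61-fold and 2.93-fold. Adgrl2 fell 2.36-fold at 24 h (adjusted p = 0.00526) and 2.25-fold at 48 h, and Flrt3 fell 2.01-fold and 1.85-fold. Slitrk1 passed at 24 h in 3 of 8 fits that left out 1 mouse. Over these fits the count ran from 7 to 11 at 24 h and from 8 to 14 at 48 h, and by voom it was 17 and 18, beside 40.3% and 43.4% of all genes in that fit. Median log2 fold changes of the list were 0.08 and 0.09, beside 0.03 and 0.02 over all genes.

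**Figure D5:**
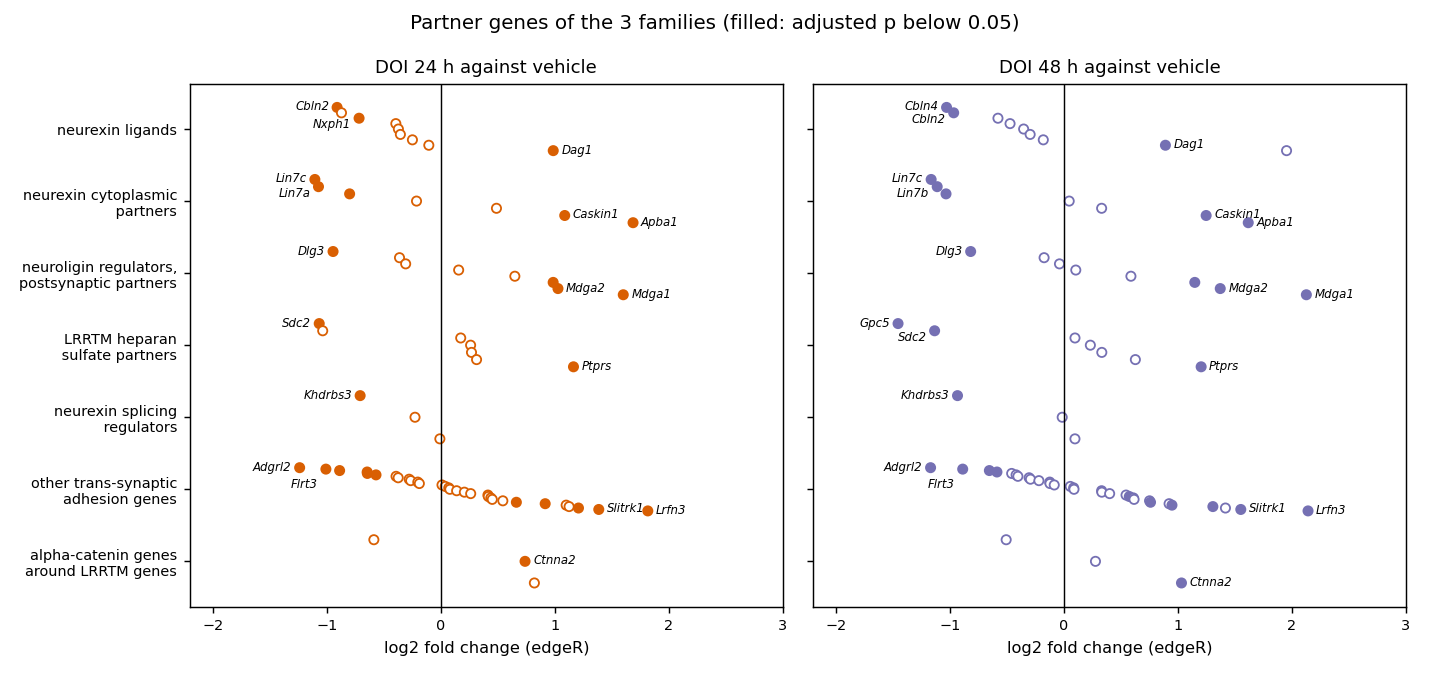
Log2 fold change (horizontal axes, edgeR) of each tested gene of the 7 lists at 24 h (left) and 48 h (right) against the same vehicle mice; filled points passed the test, and up to 2 points per list and direction are named. Of 68 genes 27 are filled at each time, on both sides of 0.

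For each member the 2 other genes with the most alike pattern over the 16 mice were named by Pearson's r of log2 CPM, as a description. For Nrxn3 they were Ncam1 and Nfasc (both 0.971), themselves adhesion genes, and for Nrxn2 Muc5b (0.946) and Celf5 (0.927). For Nlgn1 they were Gm37602 (0.974) and Gm47585 (0.973), for Nlgn2 Fam124a (0.902) and Adgrl1 (0.897), and for Nlgn3 Hrh3 (0.913) and Slc22a17 (0.910). For Lrrtm1 they were Tmeff2 (0.980) and Lrrn2 (0.970), for Lrrtm3 Lin7a (0.966) and Ccsap (0.962), and for Lrrtm4 Cdc7 (0.946) and Rbmx (0.937). For Lrrtm2 they were Eif1a (0.898) and Htr2a (0.897), the gene of the serotonin 2A receptor. All of these share the depth and the groups of the 16 mice.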

How the data were processed

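Per the file headers, the authors counted reads with featureCounts v2.0.0 over exons of each Ensembl gene of GRCm38, and the deposited values are raw counts, with no option shown for strand, multi-mapping reads or overlapping genes. The submitters' processing notes also name Trim Galore 0.6.5, Bowtie2 2.4.1 and DESeq2 1.30.0, without their roles. The aligner of the RNA reads is not given in the sources used here. From the counts, the 2 libraries of each mouse were summed, which left 16 mice with between 5834248 and 12354785 counts. The labels do not state how mice were housed or injected, and the mouse was taken as the replicate. Genes kept by filterByExpr (17941) were fitted together over the 4 groups with edgeR 4.0.16 in R 4.3.3 (TMM factors, quasi-likelihood test, Benjamini-Hochberg, threshold 0.05), and CPM used the same factors. On data simulated for DOI 24 h against vehicle with 17941 genes, 170 of 200 3-fold changes were recovered (85%), with 8 false calls. Alternatives were DESeq2 1.42.0, limma 3.58.1 (voom; duplicateCorrelation over 32 libraries), other scaling and filters, single libraries, covariates, a replicate block, and each mouse left out. Added after the values were seen were thinning to the lowest total, leaving out 24 h mouse 1 and 48 h mouse 1 together, and a block by the mouse number of the file headers, which is 6 for 3 mice whose labels give another number. The members, lists and tests were chosen with earlier results of these data known. Named from each list were up to 2 genes in each direction with the largest change among those past the threshold, and every gene of a list of at most 5. Genes that overlap a member and the 2 genes most like it were named too. Dlg4, Cask, Gphn and Gpc4 fall outside that rule and were named after their values were seen. Ca10 and Ca11 were matched as Car10 and Car11. Whether the numbers of the labels pair mice across groups is not stated. Deviations of same-numbered mice had r from −0.282 to 0.244 over 24 pairs (mean −0.036). Pairs of differently numbered mice were not compared, so these values cannot exclude a pairing. Promoter windows come from RefSeq, GRCm38.p6. In a mouse 3 counts, the least that was read as a level, are 0.243 to 0.514 CPM.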

Additional observations from a re-analysis of the deposited data

Results flagged for a closer look

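In 48 sets of 4 mice (36 of member CPM, 12 of summed intron features), 3 had a lowest mouse far from the other 3 for the range of the set, by Dixon's 95% criterion, where chance gives about 1 in 20 sets. Nlgn1 in 24 h mouse 4 read 234 CPM, with the nearest mouse at 252 and the farthest at 254 CPM. Nrxn3 in vehicle mouse 2 read 343 CPM, with the others from 379 to 386 CPM. Without that mouse the 24 h change of Nrxn3 had a log2 fold change of 0.54 and an edgeR adjusted p of 0.0656. Gm37573, the feature in an Nlgn1 intron, read 0.189 CPM in vehicle mouse 1, from 2 counts, with the others from 0.681 to 0.688 CPM.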

How the results depend on the processing

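No member changed direction in any comparison under the alternatives run where it had passed the test. Of the fitted changes of single members, 818 kept their side of the threshold under settings other than left-out mice, 27 lost it and 19 gained it, and with mice left out these were 411, 17 and 4. With the Rn18s-rs5 share as a covariate 0 members passed at 24 h, at 48 h and in the test of any difference, and 0 genes of each of the 7 lists at either time. With the mitochondrial share as a covariate 0 members passed at 48 h and in the test of any difference, 0 genes of every list at 48 h, and at 24 h 1 neurexin ligand, 0 neuroligin partners and 0 alpha-catenin genes. DOI cannot be told apart from the first share at 24 h and 48 h, nor from the second at 48 h.

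Whether the replicate numbers of the labels pair the mice is not known. With the replicate numbers as a block 6 members passed at 24 h, 7 at 48 h, 0 at 7 days and 4 in the test of any difference. With the replicate block by header number these were 5, 5, 0 and 2, and at 24 h 1 ligand, 0 neuroligin partners, 1 heparan sulfate partner, 0 splicing regulators, 7 other adhesion genes and 0 alpha-catenin genes passed. With 24 h mouse 1 and 48 h mouse 1 both left out 1 ligand passed at 24 h and 2 alpha-catenin genes at 48 h. Under voom 17 and 18 other adhesion genes and 2 and 2 alpha-catenin genes passed at 24 h and 48 h. DESeq2 called 2 alpha-catenin genes at 24 h, 2 neuroligin partners at 7 days, 1 member between 48 h and 7 days and 2 between 24 h and 7 days. A fit of only the groups compared called 3 alpha-catenin genes at 24 h, and library 2 alone called 2 neuroligin partners at 48 h. Without a filter 1 neuroligin partner and 1 other adhesion gene passed at 7 days and 1 member between 24 h and 7 days. With 32 libraries and duplicateCorrelation 1 member, 1 ligand, 1 neuroligin partner and 1 other adhesion gene passed at 7 days, and 3 members between 48 h and 7 days and 3 between 24 h and 7 days. The cause of these shifts was not tested.

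With each mouse left out in turn, members past the threshold numbered 4 to 6 against vehicle in the 24 h group, 5 to 8 in the 48 h group and 0 to 1 in the 7 day group. They numbered 0 between 24 h and 48 h, 0 to 1 between 48 h and 7 days, 0 to 1 between 24 h and 7 days, and 3 to 6 for any difference. In the lists the counts, in the order 24 h, 48 h, 7 days, were 0 to 4, 1 to 3 and 0 (ligands), 4 to 5, 5 and 0 (cytoplasmic partners), 1 to 4, 3 to 4 and 0 to 3 (neuroligin partners), 2, 2 to 3 and 0 to 1 (heparan sulfate partners), 0 to 1, 1 and 0 (splicing regulators), 7 to 11, 8 to 14 and 0 to 1 (other adhesion genes), and 0 to 1, 1 to 2 and 0 (alpha-catenins). By CPM not per length Nrxn2 ranked 8, Nrxn3 1, Nlgn2 9, Lrrtm1 3 and Lrrtm3 2 in vehicle. With Spearman's rho 0 of the 2 genes named as most like Nrxn2, Nrxn3, Nlgn1 and Lrrtm2 were shared, and 1 for Nlgn3, Lrrtm1, Lrrtm3 and Lrrtm4.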
